A study of Mus musculus with 12 samples.

Results

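The clustered replication-dependent histone genes were followed in cultures with and without the lncRNA *Neuid*. The members were all protein-coding genes whose symbol in the GENCODE annotation of mm10 (GRCm38) starts with Hist1h, Hist2h, Hist3h or Hist4h. There were 67 such genes among the 55471 genes of the count table. They comprised 6 genes for the linker histone H1, 18 for H2A, 18 for H2B, 12 for H3 and 13 for H4. The Hist1 cluster on chromosome 13 held 54 of them, the Hist2 cluster on chromosome 3 held 10, Hist3 on chromosome 11 held 2 and Hist4 on chromosome 6 held 1. A further 3 genes with these symbol stems were not annotated as protein-coding and were left out.

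Wild-type mouse primary hippocampal neurons received either a negative control gapmer or a gapmer against *Neuid* (*Neuid* KD) at day 7 in vitro (DIV 7), and RNA was collected at DIV 10. Gapmers are single-stranded antisense oligonucleotides that direct RNase H to cut the RNA they pair with; here they were delivered in lipid nanoparticles. Each group comprised 6 total RNA libraries. Whether these libraries came from separate cultures is not given in the sources used here, so p-values measure only the spread between libraries. Per the study's methods, the hippocampi came from late-gestation CD1 embryos, and their litters were of mixed sex.

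H2A, H2B, H3 and H4 are the core histones around which DNA is wound into nucleosomes, and H1 binds the linker DNA between them. Dividing cells make most of their histones during S phase from these clustered gene copies, which usually lack introns. Their mRNAs are cut after a conserved hairpin, the stem-loop, bound by the stem-loop binding protein SLBP, in place of receiving a poly(A) tail. Neurons no longer divide and rely on replacement histones such as H3.3 and H2A.Z, whose genes lie outside the clusters and give polyadenylated mRNAs. Hippocampal cultures also hold glial cells, some of which divide.

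The stem-loop was read from the annotated transcripts to see which members carry the ending typical of this gene family. The motif was made of the arms GGCTCT and AGAGCC around the loop TTTN, where N is any base, and was searched on the transcript strand after the stop codon with up to 2 mismatches over its 16 bases. It was found in 43 of the 67 members, without a mismatch in 33. The same search found it in 58 of 21834 other protein-coding genes (0.266%). Among these was *H2afx*, which is also in the list of replacement histones read below. In the members the stem-loop began between 22 and 59 bases after the stop codon. Of the members without a match, several could not show one, since 15 members are annotated with fewer than 21 bases after the stop codon. The 6 examples from GENCODE transcripts show how the element varies between classes; the 16 matched bases are in capitals, with up to 5 flanking bases on each side.
Hist1h1c: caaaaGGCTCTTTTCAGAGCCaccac
Hist1h2ac: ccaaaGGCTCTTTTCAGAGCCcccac
Hist1h3e: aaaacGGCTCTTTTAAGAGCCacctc
Hist1h3g: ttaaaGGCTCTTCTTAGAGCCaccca
Hist1h4d: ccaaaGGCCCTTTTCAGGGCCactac
Hist1h4c: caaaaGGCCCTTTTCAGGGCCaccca
All 9 matches in H4 genes carried 2 mismatches to the searched motif, 1 in each arm of the hairpin, so that the arms still pair. *Hist1h3g* carried the 1 match with a single mismatch, in its loop.

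The coding sequences are far less distinct than the genes' names, which bears on how reads can be assigned. Every 50-base window of a member's transcripts, the length of the reads, was looked up on either strand in the transcripts of other annotated genes. Genes whose exons overlap the member's were left out of this search, which concerns 24 members. A window shared only with such an overlapping gene therefore counts as unique. In 30 of the 67 members fewer than 50% of the windows were unique, found in none of the genes searched, and in 17 members at least 80% were. *Hist2h2aa2* had none (0%). The first 60 bases of the coding sequence are shown for 2 sets of H2A genes, with capitals where a gene departs from the first of its set.
Hist2h2aa1: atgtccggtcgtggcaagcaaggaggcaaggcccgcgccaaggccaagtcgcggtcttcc
Hist2h2aa2: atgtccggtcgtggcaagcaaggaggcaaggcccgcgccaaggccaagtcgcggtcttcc
Hist2h2ac: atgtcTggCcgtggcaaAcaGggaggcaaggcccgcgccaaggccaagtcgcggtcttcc
Hist1h2ao: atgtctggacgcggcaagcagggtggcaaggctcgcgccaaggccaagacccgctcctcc
Hist1h2ap: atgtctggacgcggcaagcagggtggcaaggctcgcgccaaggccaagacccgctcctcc
Hist1h2ak: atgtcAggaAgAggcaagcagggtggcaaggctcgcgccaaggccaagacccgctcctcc
*Hist2h2aa1* and *Hist2h2aa2* were identical over all 393 coding bases, as were *Hist1h2ao* and *Hist1h2ap*. *Hist2h2ac* differed from the first of its set at 4 of these 60 positions, and *Hist1h2ak* at 3 of 60, or 12 of 393 over the whole coding sequence.

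The counts of these genes are given beside their sequences. *Hist2h2aa1*, *Hist1h2ao* and *Hist1h2ap* had 0 reads in all 12 libraries and *Hist2h2aa2* had 1 read, whereas *Hist2h2ac* had 46 to 99 reads per library and *Hist1h2ak* 130 to 352. Other members with few unique windows did have reads. *Hist1h2ai* (9.9% unique) had 19 to 66 per library and *Hist1h3h* (6.1% unique) had 2 to 25. The part of sequence sharing in these counts was not tested. In all, 6 members had 0 reads in every library; the other 3 were *Hist1h2bq*, *Hist1h2br* and *Hist2h3c1*. A count of 0 among the 272125498 reads of the 12 libraries together allows a level of up to 0.011 CPM (read counts scaled to a common library size), for counting error only. It speaks of reads that were assigned to the gene: 5 of the 6 had under 50% unique windows, and whether reads that fit several genes were counted is not given in the sources used here. For these members a low count therefore cannot be read as low expression. *Hist2h3c1*, with 65.3% unique windows, was the exception in sequence. Its annotation overlaps that of *Gm20634* on the same strand, a gene that the search left out. Its 0 reads therefore cannot be read as low expression either.

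**Figure D1:**
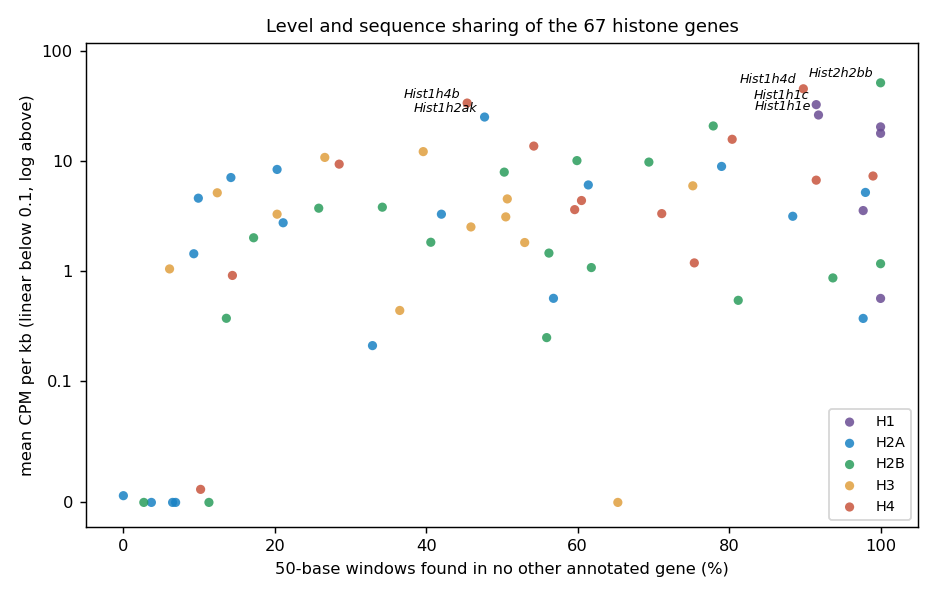
Each point is 1 of the 67 histone genes, coloured by class. The x axis gives the percentage of its 50-base windows found in no other annotated gene, leaving out genes that overlap it. The y axis gives its mean level in CPM per kb of exon over the 12 libraries (linear below 0.1, logarithmic above). 7 of the 8 genes at or near 0 lie at 11.3% unique windows or less. The highest level, 51.7 CPM per kb, belongs to a gene with 100% unique windows (*Hist2h2bb*). It overlaps annotated genes on both strands, which the search left out.

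Levels spanned a wide range. Across the 30 members with under 50% unique windows the median level was 2.25 CPM per kb of exon, across the 20 members with 50% to under 80% it was 3.99, and across the 17 members with at least 80% it was 6.7. A mean of at least 1 CPM over the 12 libraries was reached by 43 members. Compared per length, the highest levels were those of *Hist2h2bb* (51.7 CPM per kb) and *Hist1h4d* (45.6). The highest in H1 were *Hist1h1c* (32.7) and *Hist1h1e* (26.3), in H2A *Hist1h2ak* (25.2) and *Hist2h2ab* (8.94), and in H3 *Hist1h3b* (12.2) and *Hist1h3e* (10.8). *Hist3h2ba* (20.9) was second in H2B and *Hist1h4b* (33.8) second in H4. In CPM, *Hist1h4d*, *Hist1h1c* and *Hist1h1e* together held 35.1% of the summed level of the family, and the 14 members above 10 CPM held 73.3%.

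The knockdown itself was read first. *Neuid* (Gm10419) lay between 26 and 31 CPM in the control libraries and between 6.32 and 9.55 CPM in the *Neuid* KD libraries. The groups did not overlap, and the level fell by 1.81 on the log2 scale (edgeR quasi-likelihood test, adjusted p = 1.32e-10; exact two-sided permutation test over all arrangements, p = 0.00216, the smallest it can give). The libraries held 11152556 to 30914714 reads, of which 5596 to 13631 fell on the histone genes. Neuron markers were high in both groups, with a summed level of 4620 to 5470 CPM over 6 genes in control and 4480 to 5450 in *Neuid* KD libraries. One property split the libraries without regard to group. Reads on 2012 chemosensory receptor genes, which mainly serve smell and taste cells, made up 100 CPM or more in 7 libraries (4 control, 3 *Neuid* KD) and less in 5 (2 control, 3 *Neuid* KD), with a range of 26.7 to 667 CPM. Scaled by exon length, this background would account for 0.0646% to 1.7% of the summed histone level per library. For histone genes with an adjusted p under 0.05 in 1 of these 2 sets of libraries, the values in both sets are given; differences between the sets were not tested.

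*Neuid* KD left the summed level of the histone genes within the spread between libraries. The 67 members together reached 442 ± 18.3 CPM in control (SD, n = 6; 415 to 461) and 433 ± 26.3 CPM after *Neuid* KD (390 to 471, n = 6), a ratio of 0.979. Within the libraries with at least 100 CPM of background the ratio was 0.998, and within the others it was 0.946. Since these are bulk cultures, fewer cells making histone mRNA and less histone mRNA per cell cannot be told apart.

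H4 genes, whose protein pairs with H3 in the nucleosome core, showed the largest difference in sum. They reached 131 ± 3.64 CPM in control (SD, n = 6; 127 to 137) and 121 ± 6.43 after *Neuid* KD (111 to 128, n = 6), a ratio of 0.926. The lowest control library lay below the highest *Neuid* KD library. H2A sums were 49.7 ± 3.65 and 46.3 ± 2.99 CPM (SD, n = 6 each), a ratio of 0.933, and H3 sums were 39.2 ± 1.57 and 37.6 ± 3.4 (ratio 0.959). H2B sums were 68.3 ± 4.32 and 68.2 ± 4.96 (ratio 0.999). The H1 sum was the one class that was higher on average in *Neuid* KD, with 160 ± 12.1 against 154 ± 7.61 CPM (ratio 1.03). The groups overlapped in every class. By cluster the ratios were 0.982 for Hist1, 0.978 for Hist2, 0.952 for Hist3 and 0.958 for Hist4. No test was made on sums over members.

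**Figure D2:**
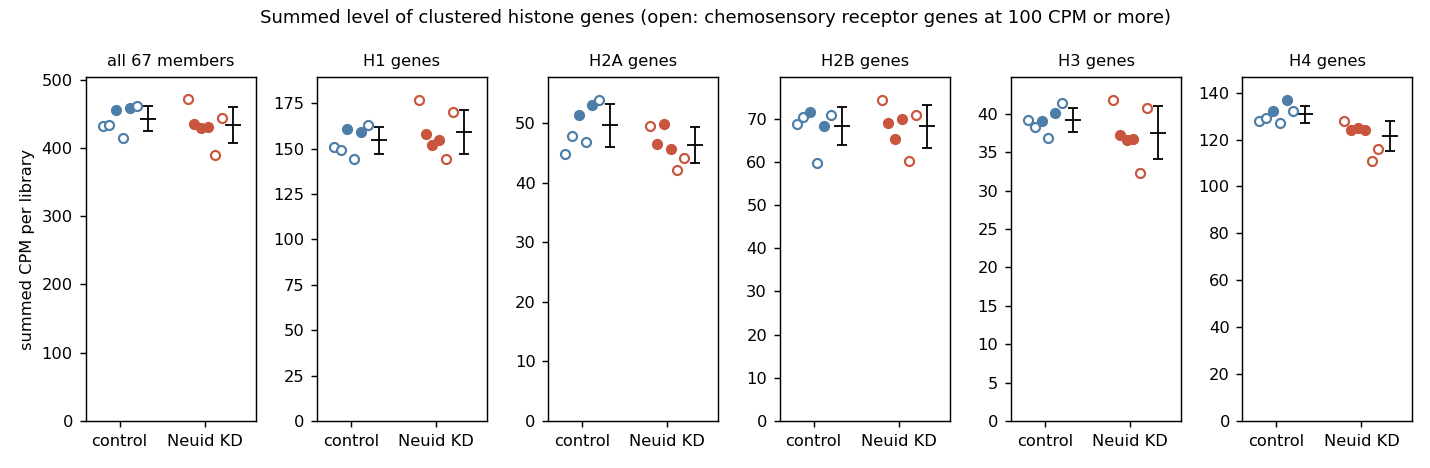
Summed CPM of all 67 histone genes and of each class (y axis, from 0) in the 6 control and 6 *Neuid* KD libraries; points are libraries, open where chemosensory receptor genes made up 100 CPM or more, and bars show the mean and SD. Control and *Neuid* KD points overlap in every panel, and lie closest to separation for H4, at 127 to 137 against 111 to 128 CPM.

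Gene by gene, 53 members had enough reads to be tested among 19578 genes. None passed the call, an adjusted p under 0.05 in edgeR's quasi-likelihood test together with an absolute log2 fold change above 0.5. Over all tested genes 3.23% passed it, 2.44% as higher and 0.792% as lower. Without the fold threshold 1 member passed, *Hist1h2bc* as higher, against 8.72% of all tested genes (6.31% higher, 2.42% lower). At an unadjusted p under 0.05 there were 8 members, 2 higher and 6 lower, a share below the 18.8% of all tested genes. DESeq2 gave an adjusted p under 0.05 to 4 members, of which 1 lay beyond the fold threshold, and an unadjusted p under 0.05 to 13. For 11 members it gave no adjusted p. The DESeq2 shares over all tested genes were not counted, so these numbers cannot be set against the edgeR shares. In no member were the 6 libraries of one group separate from those of the other, compared with 5.7% of all tested genes. The median log2 fold change was −0.07 over the tested members and −0.03 over all tested genes. On average 16 members were higher and 37 lower, beside 8698 higher and 10880 lower over all tested genes.

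The precision differed with depth. For 24 of the 53 members the 95% confidence interval of the log2 fold change lay wholly within ±0.5, as it did for 10177 of the 19578 tested genes. Among the 14 members above 10 CPM this held for 13, all but *Hist1h2bc*, and their intervals reached from −0.44 to 0.62. For the 10 tested members under 1 CPM the log2 fold changes ran from −0.34 to 0.92 with no adjusted p under 0.37, and changes of that size were not detectable at this depth.

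**Figure D3:**
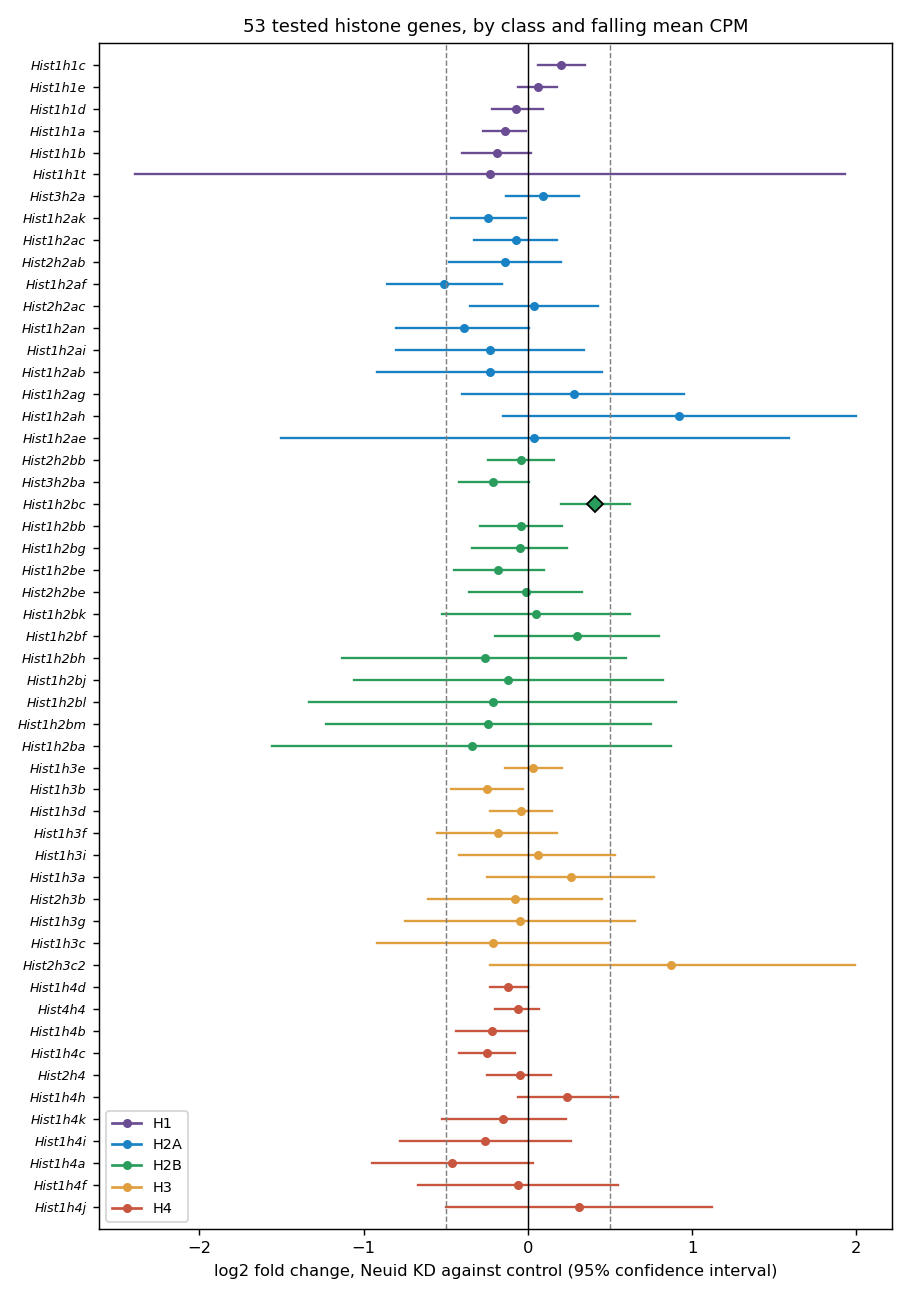
Log2 fold change of *Neuid* KD against control (x axis) with its 95% confidence interval for the 53 tested histone genes, ordered by class and falling mean CPM; dashed lines mark ±0.5 and the diamond marks the gene with an adjusted p under 0.05. Intervals are narrow at the top of each class and widen downwards, and the diamond, *Hist1h2bc*, lies at 0.41.

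H2B genes included this member. *Hist1h2bc* (ENSMUSG00000018102) read 8.35 to 11.8 CPM in control (median 9.49) and 11.1 to 16.8 CPM after *Neuid* KD (median 12.4). The groups overlapped only between the highest control library, replicate 5, and the lowest *Neuid* KD library, replicate 2, and *Neuid* KD replicate 1 stood above all others. The log2 fold change was 0.41 (SE 0.0973, 95% interval 0.2 to 0.62; edgeR adjusted p = 0.0113). Without *Neuid* KD replicate 1 it was 0.3 (adjusted p = 0.0299), and without control replicate 6 it was 0.38 (adjusted p = 0.0542), so the call at adjusted p under 0.05 was lost. Within the 7 libraries with at least 100 CPM of background it was 0.61 (adjusted p = 0.000764), and within the other 5 it was 0.12 (adjusted p = 0.657); the difference between these values was not tested. Over the 12 libraries the expected background made up 0.466% of the gene's level.

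*Hist1h2bc* is also unusual in structure. Of the 67 members 62 are annotated with 1 exon, and *Hist1h2bc* is among the 5 others. Its first exon (chr13:23684199-23684621, plus strand) holds the coding sequence and ends 9 bases after the stop codon. The second exon (chr13:23692176-23692908) lies 7554 bases further on and is wholly untranslated, and the annotated transcript holds no match to the stem-loop motif. Only 13.1% of the windows within the first exon were unique, against 98% within the second. Counts per gene do not show which exon the reads came from.

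*Hist1h2bc* shares a promoter region with *Hist1h2ac*, an H2A gene read in the opposite direction 250 bases away, an arrangement found at 12 places in the clusters. RefSeq promoters of GRCm38.p6 were taken from 250 bases before to 50 after the start. They were matched by Entrez gene identifier, keeping the promoter nearest to the GENCODE start, for 62 members. *Hist1h2bc* was not among them, and the window of *Hist1h2ac* (chr13:23683910-23684209, minus strand) covers the stretch between both genes. It is shown with matches to ATTTGCAT (the octamer motif bound by Oct1), CCAAT and TATAAA, on either strand, in capitals.
Hist1h2ac: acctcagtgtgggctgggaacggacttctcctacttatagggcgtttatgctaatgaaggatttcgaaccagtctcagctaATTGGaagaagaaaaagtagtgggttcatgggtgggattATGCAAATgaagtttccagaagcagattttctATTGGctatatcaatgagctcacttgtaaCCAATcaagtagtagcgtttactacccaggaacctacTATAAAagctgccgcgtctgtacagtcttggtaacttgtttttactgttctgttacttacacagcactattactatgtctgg
This window holds 1 octamer motif, 3 CCAAT motifs and 1 TATAAA motif. *Hist1h2ac* itself read 5.94 to 10.1 CPM in control and 5.96 to 8.24 CPM after *Neuid* KD, with a log2 fold change of −0.07 (95% interval −0.33 to 0.18; edgeR adjusted p = 0.845). Across the family the octamer motif was found in 38.9% of H2A and 37.5% of H2B promoters and in no promoter of H1, H3 or H4 genes, against 1.74% of 32851 RefSeq promoters. The H2A and H2B shares are not independent, since windows of opposed neighbours can hold the same site. This was so for *Hist1h2aa* with *Hist1h2ba*, *Hist1h2ae* with *Hist1h2bg*, and *Hist1h2ah* with *Hist1h2bk*. CCAAT was found in 85.5% of the member promoters (25% in H4, 100% in the other classes) and 37.4% of all, and TATAAA in 56.5% and 13.6%. These are matches of letters and not sites of binding; in the window shown no 2 matches share a base.

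The other H2B genes above 1 CPM did not pass the test. *Hist2h2bb*, the member with the highest level per length, read 16.9 to 23.7 CPM in control (median 19.9) and 16 to 22.9 in *Neuid* KD libraries (median 20), with a log2 fold change of −0.04 (95% interval −0.24 to 0.16). The annotation of *Hist2h2bb* overlaps that of *Gm42743* on the same strand. *Hist3h2ba* read 12.2 to 15.6 and 9.37 to 14.3 CPM, at −0.21 (edgeR adjusted p = 0.286). Within the 7 libraries with at least 100 CPM of background *Hist3h2ba* was at −0.42 (edgeR adjusted p = 0.0457), and within the other 5 at −0.08 (adjusted p = 0.792). *Hist1h2bb*, *Hist1h2bg*, *Hist1h2be*, *Hist2h2be*, *Hist1h2bk* and *Hist1h2bf* ranged from −0.18 to 0.3. Of the 9 H2B genes above 1 CPM 3 were higher and 6 lower on average.

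Among uncalled members with a log2 fold change beyond ±0.5, the H2A gene *Hist1h2af* had the lowest adjusted p. *Hist1h2af* read 2.84 to 4.9 CPM in control (median 4.04) and 2.13 to 3.23 CPM after *Neuid* KD (median 2.78). Control replicate 1 fell within the range of the *Neuid* KD libraries and the other 5 controls lay above it. The log2 fold change was −0.51 (SE 0.166, 95% interval −0.86 to −0.16; edgeR adjusted p = 0.0741). It passed the call without control replicate 1 (−0.58, adjusted p = 0.0293). It also passed with upper-quartile scaling (−0.57, adjusted p = 0.0327), in DESeq2 (−0.52, adjusted p = 0.014), with 1 RUVs factor (−0.53, adjusted p = 0.0197) and with the background as a covariate (−0.52, adjusted p = 0.0219). Only 20.3% of its windows were unique, and the rest of its sequence is shared with other genes.

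Of the 10 H2A genes above 1 CPM 3 were higher and 7 lower on average, and none passed the test. *Hist3h2a* read 8.11 to 12.9 CPM in control and 9.31 to 13.1 CPM after *Neuid* KD, at 0.09 (95% interval −0.13 to 0.31). *Hist1h2ak* read 8.63 to 12.7 and 8.07 to 10.9 CPM, at −0.24 (adjusted p = 0.232); within the 5 libraries with under 100 CPM of background it was −0.6 (adjusted p = 0.00173) and passed the call there, and within the 7 libraries with at least 100 CPM it was 0.02 (adjusted p = 0.996). *Hist2h2ab*, *Hist2h2ac*, *Hist1h2an*, *Hist1h2ai*, *Hist1h2ab* and *Hist1h2ag* ranged from −0.39 to 0.28. An annotated gene lies on the opposite strand of all 18 H2A genes and of 21 members in all, *Hist2h2bb* and *Hist1h4b* among them. The kit keeps the strand, but whether the counting used it is not given in the sources used here, so reads of these partners cannot be told apart.

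Of the 6 H1 genes 5 lay above 1 CPM. *Hist1h1c*, which encodes the linker histone H1.2, read 41.9 to 52.4 CPM in control (median 47.7) and 46.9 to 63.3 CPM after *Neuid* KD (median 53.9). The upper control libraries overlapped the lower *Neuid* KD libraries, and the log2 fold change of 0.2 (95% interval 0.06 to 0.35) had an edgeR adjusted p of 0.0926. Of 23 alternatives 3 put *Hist1h1c* under an adjusted p of 0.05, namely DESeq2 (0.0496), 1 RUVs factor (0.0168) and the background covariate (0.0157), and its log2 fold change ranged from 0.03 to 0.31 over all 23. *Hist1h1e* read 44.9 to 56 and 47.2 to 55.1 CPM, at 0.06 (95% interval −0.06 to 0.18); its annotation overlaps that of *Hist1h2be* on the same strand. *Hist1h1d*, *Hist1h1a* and *Hist1h1b* had log2 fold changes of −0.07, −0.14 and −0.19, with edgeR adjusted p of 0.756, 0.239 and 0.321. In 1 of 23 alternatives *Hist1h1a* came under an adjusted p of 0.05. *Hist1h1b* was at −0.41 (edgeR adjusted p = 0.0189) within the 5 libraries with under 100 CPM of background and at −0.06 (adjusted p = 0.979) within the other 7. The testis-specific *Hist1h1t* reached a mean of 0.793 CPM in the 7 libraries with at least 100 CPM of background and 0.116 CPM in the other 5, and its expected background was 8.15% of its level.

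H4 genes were lower on average in 9 of the 10 members above 1 CPM, and none passed the test. *Hist1h4d* read 50.1 to 57 CPM in control (median 54.2) and 44.3 to 53.6 CPM after *Neuid* KD (median 51). Its log2 fold change was −0.12 (95% interval −0.23 to 0, edgeR adjusted p = 0.248). Of 23 alternatives 2 put *Hist1h4d* under an adjusted p of 0.05 and 2 put *Hist1h4b* there, neither beyond the fold threshold. *Hist1h4c* read 12.5 to 14.8 CPM in control (median 14.5) and 10.3 to 13.8 CPM after *Neuid* KD (median 11.4), at −0.25 (95% interval −0.42 to −0.08; adjusted p = 0.068). For *Hist1h4c* the *Neuid* KD libraries with at least 100 CPM of background were the lower ones: within those 7 libraries of both groups its log2 fold change was −0.44 (adjusted p = 0.0164), and within the other 5 it was −0.09 (adjusted p = 0.743). *Hist1h4c* passed an adjusted p of 0.05, though not the fold threshold, in 6 of 23 alternatives. Beside those 7 libraries these were upper-quartile scaling (−0.31, adjusted p = 0.0124), DESeq2 (−0.27, adjusted p = 0.0134), 1 RUVs factor (−0.26, adjusted p = 0.027), the background covariate (−0.26, adjusted p = 0.0276) and the fit without *Neuid* KD replicate 2 (−0.31, adjusted p = 0.0418). *Hist1h4h* was the 1 H4 gene above 1 CPM with a higher average, at 0.24 (adjusted p = 0.42). *Hist4h4*, *Hist1h4b*, *Hist2h4*, *Hist1h4k*, *Hist1h4i*, *Hist1h4a* and *Hist1h4f* ranged from −0.46 to −0.05. Of these, *Hist1h4b*, at −0.22 over all 12 libraries, was at −0.46 (edgeR adjusted p = 0.0221) within the 5 libraries with under 100 CPM of background and at −0.04 (adjusted p = 0.989) within the other 7.

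H3 genes had the smallest sum. *Hist1h3e* read 8.26 to 9.34 CPM in control and 8.08 to 11.3 CPM after *Neuid* KD, at 0.03 (95% interval −0.14 to 0.21). *Hist1h3b* read 6.82 to 10.2 and 5.91 to 7.9 CPM, at −0.25 (95% interval −0.47 to −0.03; adjusted p = 0.182). *Hist1h3d*, *Hist1h3f*, *Hist1h3i*, *Hist1h3a*, *Hist2h3b*, *Hist1h3g* and *Hist1h3c* ranged from −0.21 to 0.26. None of the 9 H3 genes above 1 CPM passed the test, and 3 were higher and 6 lower on average.

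**Figure D4:**
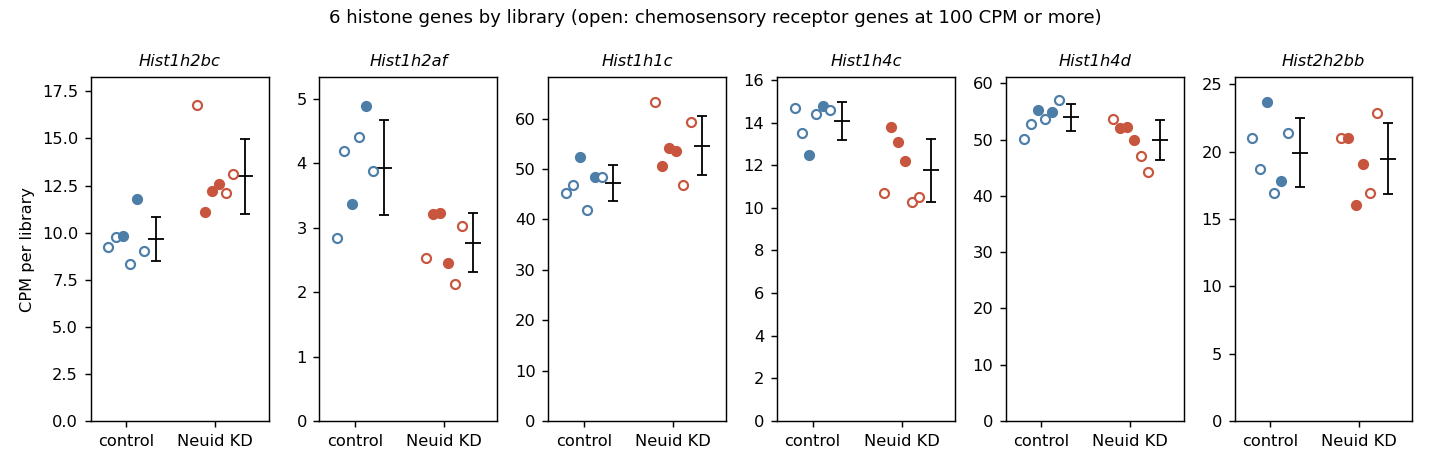
CPM (y axis, from 0) of 6 histone genes in each control and *Neuid* KD library; points are libraries, open where chemosensory receptor genes made up 100 CPM or more, and bars show the mean and SD. *Hist1h2bc* overlaps only between its highest control (11.8 CPM) and lowest *Neuid* KD (11.1 CPM) library, and the open *Neuid* KD points of *Hist1h4c* lie at 10.3 to 10.7 CPM, below its filled ones.

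The members were also sorted by what they share in sequence. The 43 members with a stem-loop match summed to 329 CPM in control and 327 CPM after *Neuid* KD (ratio 0.993), and the 24 without one to 113 and 106 CPM (ratio 0.939). The 16 tested members with at least 80% unique windows had a median log2 fold change of −0.07, those with 50% to under 80% of −0.06, and those with under 50% of −0.12. The members that were not tested comprised the 6 without reads, *Hist1h4m* and *Hist2h2aa2* with 1 read each, and 6 with means of 0.119 to 0.427 CPM.

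The genes that serve histone mRNA and chromatin assembly were read from 5 lists, 78 genes in all, to set the histone genes beside their pathway. Of these 1 passed the call, beside 3.23% of all tested genes. At an unadjusted p under 0.05 in edgeR there were 16 of the 78, beside 18.8% of all tested genes. Of 15 genes for the synthesis and processing of histone mRNA none passed even without the fold threshold, with 3 at an unadjusted p under 0.05 in edgeR. *Slbp*, which encodes the stem-loop binding protein, read 19.3 to 21.8 CPM in control and 16.4 to 20.9 CPM after *Neuid* KD, at −0.11 (95% interval −0.25 to 0.03; adjusted p = 0.453). *Npat*, the cyclin E/CDK2 substrate that activates histone gene transcription, was at 0.08 (95% interval −0.05 to 0.2; adjusted p = 0.585). *Lsm11*, a subunit of the U7 snRNP that directs the cut after the stem-loop, was at 0.28 (adjusted p = 0.0508).

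The replacement histones held the 1 call. *H2afv*, which encodes the variant H2A.Z.2, rose from 8.92 ± 0.855 to 13.7 ± 0.497 CPM (SD, n = 6 each), without overlap between 7.87 to 10.3 CPM in control and 13.1 to 14.3 CPM after *Neuid* KD. Its log2 fold change was 0.62 (edgeR adjusted p = 6.48e-06), with 0.71 and 0.46 within the libraries with at least and under 100 CPM of background. *H2afy2*, for macroH2A2, fell by 0.23 on the log2 scale (edgeR adjusted p = 0.00885), below the fold threshold; the call at adjusted p under 0.05 was lost in 5 of the alternatives, among them the GC and length offsets (adjusted p = 0.228). *H3f3a* and *H3f3b*, which encode H3.3, were at 0.05 and 0.13 and did not pass. The other 7 variants did not pass either, and the list's median was 0.09.

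Chaperones and cell-cycle genes gave no call. None of 14 histone chaperone genes had an adjusted or unadjusted p under 0.05 in edgeR, and their median was 0.01. Among 26 genes of DNA replication and S phase *Mcm6*, a subunit of the replicative helicase, fell by 0.37 on the log2 scale (edgeR adjusted p = 0.000454), below the fold threshold. Of the 26 genes 7 were higher and 19 lower on average, with a median of −0.11. Over all tested genes 8698 were higher and 10880 lower, with a median of −0.03. In edgeR 3 of the 26 had an unadjusted p under 0.05, all of them lower. The 12 mitosis genes had a median of −0.04 and no adjusted p under 0.05 (3 unadjusted in edgeR). *Mki67*, the proliferation marker Ki-67, read 72.5 to 81.6 CPM in control and 66.1 to 78.2 CPM after *Neuid* KD.

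Astrocyte and neural progenitor markers were higher after *Neuid* KD, while no clustered histone gene passed the call. All 6 astrocyte markers were called higher, and their summed level was 1510 to 1920 CPM in control and 2760 to 3440 CPM after *Neuid* KD. Of 5 oligodendrocyte precursor (OPC) markers 2 were called higher, *Olig1* (1.47) and *Olig2* (1.67). *Pdgfra* (0.44), *Cspg4* (0.16) and *Sox10* (0.09) were not called. The OPC sums, 94.1 to 115 and 247 to 290 CPM, were mostly *Olig1* (means of 78.2 and 216 CPM). Of 5 neural progenitor markers 4 were called higher (sums 130 to 153 and 224 to 248 CPM). None of the 6 neuron markers was called. Microglia markers summed to at most 10.9 CPM in any library and endothelial markers to at most 12.4 CPM, and none of these or of the 6 fibroblast and mural cell markers was called. The part of the glial and progenitor markers in the levels of *Hist1h2bc*, *H2afv* or any histone gene was not tested.

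**Figure D5:**
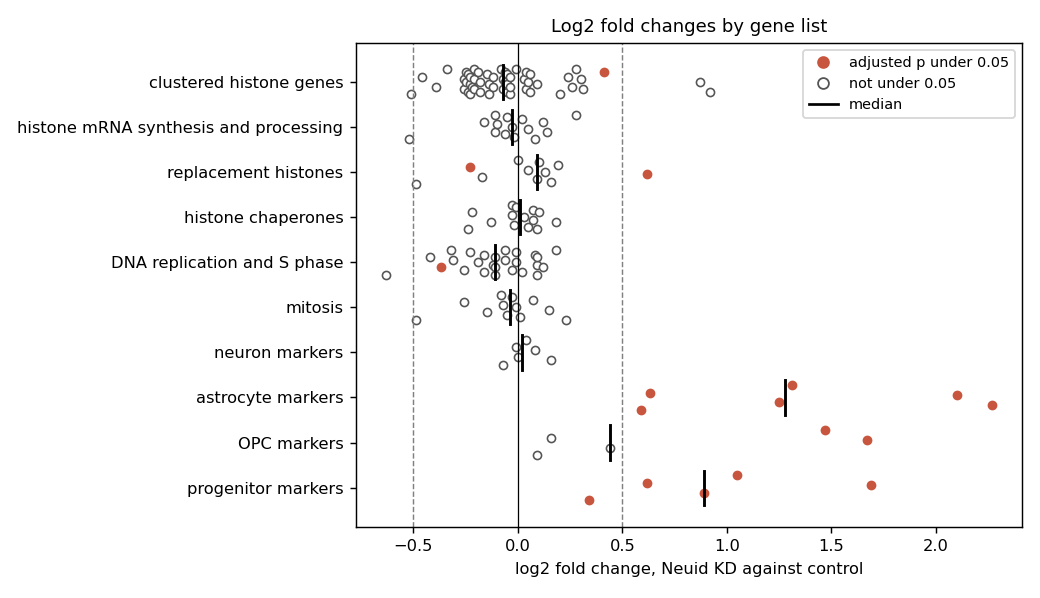
Log2 fold change of *Neuid* KD against control (x axis) for the 53 tested histone genes and the genes of 9 other lists; each point is a gene, filled at an adjusted p under 0.05, black bars are medians and dashed lines mark ±0.5. The histone genes, their processing genes, chaperones and cell-cycle genes centre between −0.11 and 0.01, and the astrocyte markers at 1.28.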

How the data were processed

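Total RNA of the hippocampal cultures was made into 12 stranded libraries (SMARTer Stranded Total RNA-Seq, pico input) and read as single 50-base reads. Per the labels and the study's methods, the authors aligned the reads with STAR to mm10 and deposited whole-number counts per Ensembl gene, made with featureCounts, without normalization; the handling of strand and of reads that fit several genes is not given in the sources used here. The file holds 1 row per library, no library was left out, and no 2 of them were identical (66 comparisons).

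Genes were named from GENCODE vM21 (55144 of 55471 matched). Counts were filtered with filterByExpr, scaled by TMM and tested with edgeR 4.0.16 (quasi-likelihood test, R 4.3.3) over 19578 genes, with group as the only term and Benjamini-Hochberg adjustment over all of them. CPM are TMM-scaled. A gene was called where its adjusted p was under 0.05 and its log2 fold change was beyond ±0.5. On simulated data with known changes the fit was checked before use. Intervals are 95% intervals of the fitted log2 fold change, and counting limits for 0 reads use 3 counts. Alternatives were DESeq2 1.42.0, RLE and upper-quartile scaling, 1 RUVs factor, a covariate for chemosensory background, no filter, GC and length offsets, a replicate block, other fold thresholds, subsets of libraries or members, and leaving out each library. Windows of 50 bases, stem-loops (16 bases, up to 2 mismatches) and coding sequences came from GENCODE transcripts, promoters (300 bases) from RefSeq GRCm38.p6. Named are members with an adjusted p under 0.05 or a mean of at least 1 CPM, the 2 with the highest CPM per kb in each class, the uncalled member nearest to the call (the lowest adjusted p beyond the fold threshold), *Neuid*, *Slbp*, *Npat*, and up to 4 genes per list with an adjusted p under 0.05; others named as examples, among them *Lsm11* and *Mki67*, were chosen after their values were seen. Members and gene lists were chosen with earlier results of these data known.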

Additional observations from a re-analysis of the deposited data

Results flagged for a closer look

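In 4 of the 100 groups of 6 libraries that were checked, 1 library lay far from the other 5 (a gap to the nearest library, relative to the group's range, above Dixon's 95% critical value); chance alone gives such a gap in about 1 of 20 groups. The summed H2B level of control replicate 4 was 59.8 CPM, and the other controls lay between 68.4 and 71.6. *Hist1h2bc* read 16.8 CPM in *Neuid* KD replicate 1, and 11.1 to 13.1 in the others. *Hist1h2ac* read 5.96 CPM in *Neuid* KD replicate 6 against 7.58 to 8.24, and *Hist1h3c* 0.608 CPM in *Neuid* KD replicate 3 against 1.09 to 1.26.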

How the results depend on the processing

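The summed histone level gave a ratio between 0.942 (upper-quartile scaling) and 0.999 under the alternatives run for it, which were RLE and upper-quartile scaling, the 2 sets of libraries by background, leaving out 1 library (0.962 to 0.999) and 2 subsets of members. It was 0.99 over members with at least 80% unique windows and 0.971 without *Hist1h2bc*; the last 2 were chosen after seeing the data. The number of histone genes called lower changed from 0 to 1 with upper-quartile scaling, in DESeq2, with 1 RUVs factor, with the background covariate and without control replicate 1 (*Hist1h2af* each time), and to 1 within the libraries under 100 CPM of background (*Hist1h2ak*); leaving out 1 library gave 0 to 1. The number called higher changed from 0 to 1 within the libraries with at least 100 CPM, with no fold threshold and with a threshold of 0.3 (*Hist1h2bc* each time), and was 0 whichever library was left out. The pathway lists gave 2 calls in DESeq2 and 1 to 2 when 1 library was left out; the added gene was *Aurkb* (−0.51, adjusted p = 0.0225, and −0.61, adjusted p = 0.045, without *Neuid* KD replicate 5), and within the libraries under 100 CPM of background the 1 call was *H2afz* (−0.88, adjusted p = 0.0465) in place of *H2afv* (0.46, adjusted p = 0.0138). Causes were not tested. *Neuid* stayed between −1.93 and −1.74. Upper-quartile scaling moved the median of all tested genes from −0.03 to −0.09.

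Over the 53 tested members and their alternatives, 1192 of 1216 results kept their side of an adjusted p of 0.05, 22 newly passed and 2 no longer passed, both for *Hist1h2bc*; 68 changed sign, none of them past the threshold. Same-numbered libraries of the 2 groups deviated together with correlations of −0.64 to 0.77, and in 2 of 6 a library correlated best with its own number, so the numbers were not taken as a pairing. With the replicate number as a block 0 members were called higher and 0 lower, 1 pathway gene was called and *Neuid* was at −1.82; with GC and length offsets as well *Neuid* was at −1.85 and the counts were the same. Uniqueness over the whole genome was not run, and transcripts were used in its place. Depth limits members under 1 CPM most, and sequence sharing limits the 30 members with under 50% unique windows.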
